A study of Mus musculus with 7 samples.

Results

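The muscle acetylcholine receptor and its synapse are represented here by 10 genes, chosen by name from the 55536 genes of the deposited table. They are Chrna1, Chrnb1, Chrnd, Chrne and Chrng, which encode the subunits of the receptor, and Agrn, Lrp4, Musk, Dok7 and Rapsn, which encode the proteins that gather it under the nerve ending. All 10 were found and all 10 passed the filter on low values, set at a mean of 5 normalized counts, as did 22878 genes in all.

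At the neuromuscular synapse the motor nerve releases acetylcholine, which opens a pentameric channel made of alpha, beta, delta and either gamma (fetal) or epsilon (adult) subunits. The nerve also secretes agrin, which binds LRP4 on the muscle and so activates the kinase MuSK. DOK7 docks on MuSK from inside the fibre, and rapsyn ties the receptors into a dense cluster. Medullary thymic epithelial cells (mTECs) transcribe genes that are otherwise restricted to other organs, many of them through the regulator Aire, so that developing T cells meet those proteins in the thymus. The receptor, MuSK and LRP4 are the main targets of autoantibodies in myasthenia gravis, a disease of muscle weakness often accompanied by changes of the thymus.

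RNA was measured by SMART-seq, which copies full-length transcripts and suits small numbers of cells, in EPCAM-positive mTECs sorted from mouse thymus. The 3 Cre-positive libraries (45, 76 and 80) and the 4 Cre-negative libraries (46, 48, 75 and 77) were all Ikzf1 fl/fl and Pou2f3-/-. Ikzf1 encodes the transcription factor Ikaros, and the floxed alleles let Cre delete part of it. Pou2f3 is the factor that tuft cells require, and its loss is shared by the controls. The comparison asks, per the series' design text, what Ikaros does to mTEC gene expression where tuft cells are missing. The Cre driver, the floxed exon and the age of the mice are not given in the labels. Nor do the labels tie each number to its own mouse, so p-values reflect only how much these samples varied, and that variation may be technical.

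Recovered reads per library ranged over 11383465 to 11623062 in the Cre-positive group and 9815958 to 12599078 in the Cre-negative group, and at least 10 reads were found for 17169 to 18014 genes in Cre-positive and 19417 to 20467 genes in Cre-negative libraries. Ikzf1 had a mean of 1605 ± 267 normalized counts in Cre-positive and 1159 ± 42.7 in Cre-negative libraries (SD, n = 3 and 4), with a limma adjusted p of 0.0916. A level over the whole gene does not check a deletion whose exon is unknown. Pou2f3 had 0 to 17.8 normalized counts in Cre-positive and 1.8 to 27.9 in Cre-negative libraries. Aire was lower in Cre-positive libraries, at 2967 ± 308 against 4417 ± 767 normalized counts (log2 fold change -0.56, limma adjusted p = 0.0395); leaving out Cre-positive 45 or 76, or Cre-negative 75 or 77, ended that call. Of 18 markers of medullary thymic epithelium, 17 had reads in every library, and Ccl21a was at 0 in all 7. Cre-negative 48 stood apart: its 4 Y-linked genes summed to 3938 normalized counts, against at most 1.0 in every other library, and it had 4.9 normalized counts of Xist, against at least 1784 elsewhere. The labels give no sex, but by these genes Cre-negative 48 alone had a male pattern, and no Cre-positive library did. Values without this library are given beside some of the results.

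Chrna1 and Chrne were the receptor subunits that changed, and both were lower in Cre-positive mTECs. Mean Chrna1 in the Cre-positive group was 0.435 times that of the Cre-negative group, and mean Chrne was 0.406 times. Chrng had lower values in every Cre-positive library without passing the test, and Chrnb1 and Chrnd overlapped between the genotypes. None of the 5 organisers was called by limma, edgeR or DESeq2 (Dok7 was below edgeR's filter), and 0 had an unadjusted limma p under 0.05. Rapsn has no p-value in the authors' deposited table. The 2 calls among 10 genes, both lower, stand beside 13.8% of all tested genes called in either direction, 9.11% called lower and 4.66% called higher, so a count this small is not far from the background. edgeR and DESeq2 on recovered reads also called 2 of the 10, with 13.7% and 17.8% of all genes called. The median log2 fold change was -0.51 over the 10 genes and -0.10 over all tested genes. In bulk RNA, fewer cells carrying a transcript and less of it per cell cannot be told apart.

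**Figure D1:**
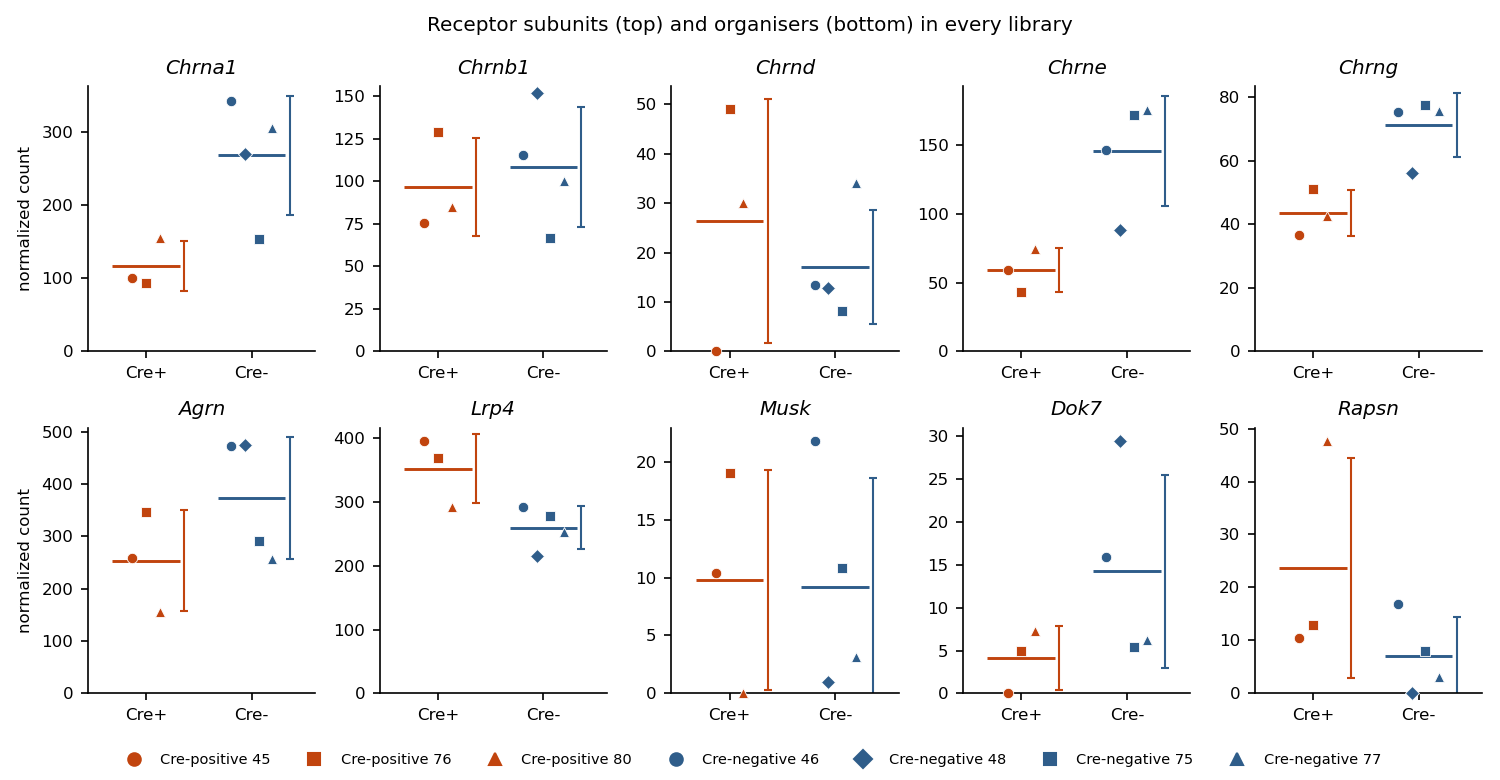
Normalized counts (vertical axis, a separate scale for each gene) of the 5 receptor subunits and 5 organisers in 3 Cre-positive (orange) and 4 Cre-negative (blue) libraries; each symbol is 1 library, horizontal lines are means and bars are SD. The Cre-positive libraries lie below all Cre-negative ones for Chrne and Chrng, and above them for Lrp4 by 291.7 against 291.6 at the closest point.

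Chrna1 (ENSMUSG00000027107; GRCm38 chr2:73563215-73580338, minus strand) encodes the alpha subunit, which carries most of the acetylcholine binding site and the main region that myasthenia autoantibodies recognise. It had 100.3, 94.1 and 155.7 normalized counts in Cre-positive 45, 76 and 80, against 342.7, 269.9, 154.0 and 306.0 in Cre-negative 46, 48, 75 and 77. Cre-negative 75 was the low library of its group and lay just under Cre-positive 80, so the groups touched. The means were 117 ± 33.9 in Cre-positive and 268 ± 81.7 in Cre-negative libraries (SD, n = 3 and 4), and Chrna1 fell by 1.17 on the log2 scale (SE 0.33, limma adjusted p = 0.0335). The call was lost without Cre-positive 45 (limma adjusted p = 0.0939) or 76 (0.0999), without Cre-negative 46 (0.103), 48 (0.0750) or 77 (0.0872), with limma-voom on recovered reads (0.0538) and with a term for the Y-linked genes (0.0814). The log2 fold change without single libraries ran from -1.41 to -1.03.

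Chrne (ENSMUSG00000014609; GRCm38 chr11:70614883-70619216, minus strand) encodes the epsilon subunit, which replaces gamma in the receptor of innervated adult muscle. Normalized counts were 59.6, 43.1 and 74.7 in Cre-positive 45, 76 and 80, against 146.7, 88.6, 172.1 and 175.8 in Cre-negative 46, 48, 75 and 77. Every Cre-positive library lay below every Cre-negative one, and Cre-negative 48 was the lowest of its group. The means were 59.1 ± 15.8 in Cre-positive and 146 ± 40.3 in Cre-negative libraries (SD, n = 3 and 4), and Chrne fell by 1.27 on the log2 scale (SE 0.37, limma adjusted p = 0.0390). Leaving out Cre-negative 48 gave -1.49 with a limma adjusted p of 0.0263. The call was lost without Cre-positive 45 (0.0761) or 76 (0.113), without Cre-negative 46 (0.0946), 75 (0.0898) or 77 (0.104), with limma-voom (0.0615) and with no filter on low values (0.0534). A gene on the opposite strand, 4930544D05Rik, overlaps Chrne but shares 0 exon bases with it in GENCODE M21.

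Chrng (ENSMUSG00000026253; GRCm38 chr1:87204657-87212694, plus strand) encodes the gamma subunit of the fetal receptor. Normalized counts were 36.6, 51.1 and 42.6 in Cre-positive 45, 76 and 80, against 75.4, 56.1, 77.5 and 75.5 in Cre-negative 46, 48, 75 and 77. The groups did not overlap, a pattern that 14.5% of all tested genes showed in this direction. The log2 fold change was -0.70 (SE 0.40, limma adjusted p = 0.279), so Chrng was not called.

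Promoter windows of these 3 subunits, which had the most negative log2 fold changes of the 5, are shown to let their motif content be compared. Each holds 250 bases before and 50 after the gene's start in RefSeq, on build GRCm38.p6, read 5′ to 3′ on the gene's strand. Capitals mark the E-box CANNTG, which the myogenic factors MyoD and myogenin bind in muscle, and the N-box CCGGAA, the Ets-factor site known from the control of synaptic genes in muscle. The Chrng window is placed on a RefSeq start that lies downstream of the start given in the deposited table.
Chrna1, chr2:73580289-73580588, minus strand: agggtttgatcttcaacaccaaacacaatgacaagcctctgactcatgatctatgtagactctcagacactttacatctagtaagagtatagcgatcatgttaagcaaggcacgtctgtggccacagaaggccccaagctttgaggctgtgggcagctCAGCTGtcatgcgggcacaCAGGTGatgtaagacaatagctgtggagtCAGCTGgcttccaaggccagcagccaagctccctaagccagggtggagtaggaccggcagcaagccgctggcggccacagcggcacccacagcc
Chrne, chr11:70619145-70619444, minus strand: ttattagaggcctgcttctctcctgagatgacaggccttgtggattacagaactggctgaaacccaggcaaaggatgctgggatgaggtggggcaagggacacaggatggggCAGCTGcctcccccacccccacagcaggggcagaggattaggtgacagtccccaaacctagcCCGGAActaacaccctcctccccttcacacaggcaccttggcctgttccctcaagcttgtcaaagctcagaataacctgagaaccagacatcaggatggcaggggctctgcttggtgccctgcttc
Chrng, chr1:87205561-87205860, plus strand: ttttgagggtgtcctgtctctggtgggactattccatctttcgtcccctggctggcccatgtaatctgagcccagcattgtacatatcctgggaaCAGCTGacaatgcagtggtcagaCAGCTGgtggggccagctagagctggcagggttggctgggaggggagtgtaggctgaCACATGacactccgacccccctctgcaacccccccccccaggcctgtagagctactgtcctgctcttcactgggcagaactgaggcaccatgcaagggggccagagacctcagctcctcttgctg

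The Chrna1 window held 3 E-boxes, at -92, -73 and -44 from the start, and those at -92 and -44 read CAGCTG, a form of CANNTG. The Chrne window held 1 E-box, a CAGCTG at -138, and the only N-box, at -76. The Chrng window held E-boxes at -155, -132 and -75, of which those at -155 and -132 read CAGCTG. Of the 32851 promoter windows of the same length in RefSeq, searched on both strands, 72.3% held CANNTG, 16.3% held CAGCTG and 14.9% held CCGGAA. The letters TGGGAA, a core known from Ikaros sites, were found in the Chrng window at -161, directly before a CAGCTG, and in 1 of the Dok7 windows at -212, and not in the windows of Chrna1, Chrne, Chrnb1, Musk and Agrn; 25.6% of all windows held them. Windows were given for 7 of the 10 genes. Among the others, Chrnb1 held E-boxes at -119, -96 and -29, Musk held them at -177, -100 and -68, and Dok7 and Agrn held 1 each, at -149 and -92. A match describes the letters in the window and is not evidence that a factor binds there.

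Chrnb1 (ENSMUSG00000041189; GRCm38 chr11:69784036-69795943, minus strand) encodes the beta subunit, through which rapsyn holds the receptor. It had 75.2, 129.2 and 85.1 normalized counts in Cre-positive 45, 76 and 80, against 115.6, 151.7, 66.7 and 100.3 in Cre-negative 46, 48, 75 and 77. The ranges overlapped over most of their width, and the log2 fold change was -0.15 (SE 0.38, limma adjusted p = 0.840).

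Chrnd (ENSMUSG00000026251; GRCm38 chr1:87190607-87200070, plus strand) encodes the delta subunit. It had 0, 49.1 and 30.1 normalized counts in Cre-positive 45, 76 and 80, against 13.4, 12.8, 8.1 and 34.1 in Cre-negative 46, 48, 75 and 77. Cre-positive 45 had no read, which allows up to 3, while Cre-positive 76 had the highest value of all. The Cre-positive mean was 1.54 times the Cre-negative mean, yet the log2 fold change was -0.45 (SE 1.18, limma adjusted p = 0.843). Leaving out Cre-positive 45 turned it to 1.31, and it was -1.51 without Cre-positive 76 and -1.17 without Cre-positive 80. No direction can be given for Chrnd at this depth.

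Agrn (ENSMUSG00000041936; GRCm38 chr4:156165290-156197488, minus strand) encodes agrin, which besides its synaptic form is a widespread basement membrane proteoglycan. Normalized counts were 259.1, 346.5 and 155.7 in Cre-positive 45, 76 and 80, against 472.6, 474.8, 290.1 and 256.4 in Cre-negative 46, 48, 75 and 77. Cre-positive 76 lay above Cre-negative 75 and 77, and Cre-positive 45 above Cre-negative 77. Agrn was not called (log2 fold change -0.58, SE 0.32, limma adjusted p = 0.265).

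Lrp4 (ENSMUSG00000027253; GRCm38 chr2:91457511-91513779, plus strand) encodes the agrin receptor, which is also made outside muscle. It had 396.0, 368.5 and 291.7 normalized counts in Cre-positive 45, 76 and 80, against 291.6, 215.7, 278.4 and 252.3 in Cre-negative 46, 48, 75 and 77. All Cre-positive values were higher, the closest pair differing by less than the worth of 1 read, a pattern that 10.8% of tested genes showed in this direction. The means were 352 ± 54.1 in Cre-positive and 259.5 ± 33.5 in Cre-negative libraries (SD, n = 3 and 4), with a log2 fold change of 0.44 (SE 0.23, limma adjusted p = 0.241).

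Musk (ENSMUSG00000057280; GRCm38 chr4:58285960-58374303, plus strand) encodes the kinase at the centre of the synapse. It had 10.4, 19.0 and 0 normalized counts in Cre-positive 45, 76 and 80, against 21.8, 1.0, 10.8 and 3.1 in Cre-negative 46, 48, 75 and 77. The level was near the limit of detection in both groups, with 29 reads over the Cre-positive and 42 over the Cre-negative libraries in all. The log2 fold change of -0.17 had an SE of 1.21 (limma adjusted p = 0.949). It was -1.02 without Cre-positive 76, 1.14 without Cre-positive 80 and -0.76 without Cre-negative 48, so no direction can be given for Musk.

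Dok7 (ENSMUSG00000044716; GRCm38 chr5:35056766-35087839, plus strand) encodes the adaptor of MuSK. It had 0, 5.0 and 7.3 normalized counts in Cre-positive 45, 76 and 80, against 15.9, 29.5, 5.4 and 6.2 in Cre-negative 46, 48, 75 and 77. The higher values came from Cre-negative 46 and 48, and the other 2 Cre-negative libraries lay among the Cre-positive ones. Its log2 fold change of -1.75 had an SE of 1.01 (limma adjusted p = 0.280), and was -0.81 without Cre-positive 45 and -2.34 without Cre-positive 80.

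Rapsn (ENSMUSG00000002104; GRCm38 chr2:91035620-91045729, plus strand) encodes rapsyn, the scaffold of the receptor cluster. It had 10.4, 13.0 and 47.7 normalized counts in Cre-positive 45, 76 and 80, against 16.8, 0, 8.1 and 3.1 in Cre-negative 46, 48, 75 and 77. Cre-positive 80 alone lay above all Cre-negative libraries. Rapsn was not called (log2 fold change 1.96, SE 1.05, limma adjusted p = 0.243), and it shares 4 of its 1802 exon bases with Gm13778 on the opposite strand. Its log2 fold change was 1.32 without Cre-positive 80, 2.57 without Cre-negative 46 and 1.18 without Cre-negative 48.

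**Figure D2:**
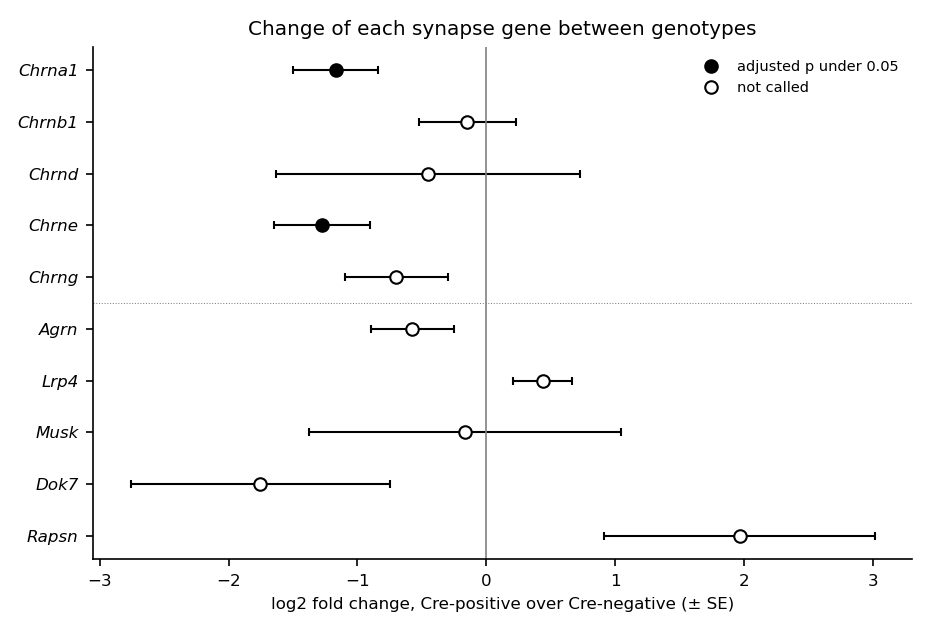
Log2 fold change of each gene, Cre-positive over Cre-negative, from limma on log2(normalized count + 1); points are estimates, bars are SE, and filled points have an adjusted p under 0.05. Chrna1 at -1.17 and Chrne at -1.27 are the filled points, and the SE exceeds 1 for Chrnd, Musk, Dok7 and Rapsn.

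The 4 genes with SE above 1 were also those with the lowest counts. Between 13.8% and 28.9% of tested genes had a lower mean than Musk, Dok7, Rapsn or Chrnd, whereas 76.6% had a lower mean than Agrn and 75.2% a lower mean than Lrp4. Chrna1 stood above 68.3% of tested genes and Chrne above 57.1%. At this depth a log2 fold change the size of that of Chrna1 was not detectable in the 4 rarely read genes.

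Levels of different genes were compared per exon length, as RPKM computed from the recovered reads and the exon length of each gene in GENCODE M21. On that scale Chrne was the highest of the 10 genes in Cre-negative libraries, at 8.38 ± 2.14, and Chrna1 came next at 5.99 ± 1.83 (SD, n = 4). Chrnb1 at 4.23 ± 1.53, Agrn at 3.95 ± 1.30 and Lrp4 at 2.41 ± 0.216 followed in the Cre-negative group, and Chrng was at 1.66 ± 0.181. From Chrne down to Agrn, neighbours in this order did not differ beyond their spread. Chrnd, Rapsn, Dok7 and Musk had Cre-negative means of 0.231 to 0.511.

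In Cre-positive libraries the order on the per-length scale was flatter at the top. Chrnb1 averaged 3.25 ± 1.07, Chrne 2.95 ± 0.716, Lrp4 2.85 ± 0.476, Agrn 2.34 ± 0.940 and Chrna1 2.25 ± 0.601 (SD, n = 3), and these 5 did not differ beyond their spread. The per-length sum of the 5 subunits was 8.12, 11.0 and 11.0 in Cre-positive 45, 76 and 80, against 22.1, 19.8, 17.4 and 23.8 in Cre-negative 46, 48, 75 and 77. The sum was lower in every Cre-positive library, and Chrna1 and Chrne, both called, make up much of it. Chrnd had the lowest per-length mean of the 5 subunits, at 0.689 ± 0.657 in Cre-positive and 0.511 ± 0.349 in Cre-negative libraries, within the spread of Chrng in the Cre-positive group (0.887 ± 0.172).

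**Figure D3:**
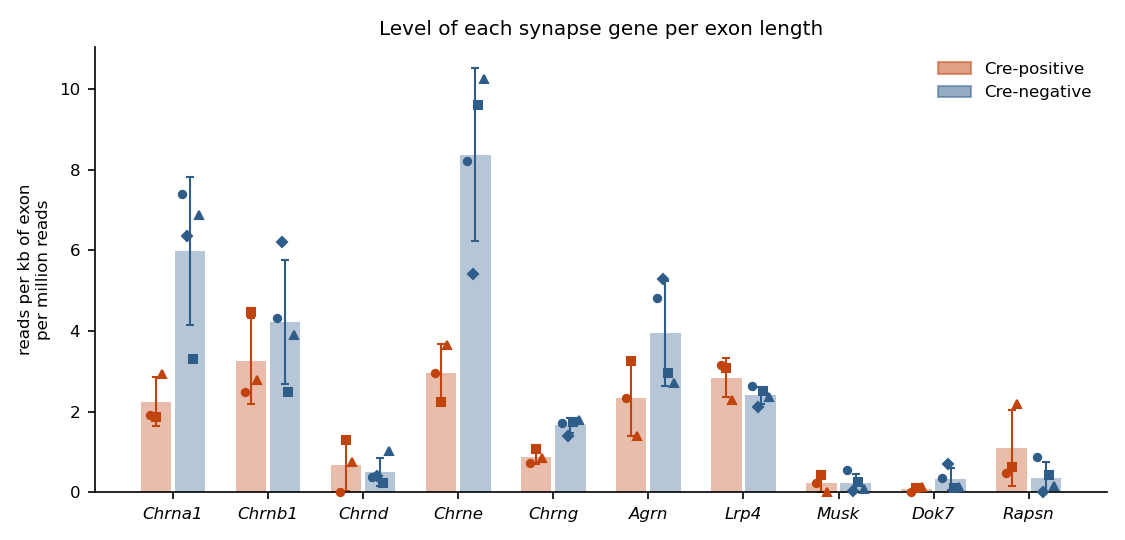
RPKM of each gene (vertical axis), from recovered reads and GENCODE M21 exon length; bars are means from 0, error bars are SD, and symbols are libraries in 3 Cre-positive (orange) and 4 Cre-negative (blue) samples. Chrne and Chrna1 lead in the Cre-negative group, at means of 8.38 and 5.99, while the leading 5 genes of the Cre-positive group lie between 2.25 and 3.25.

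Per exon length, RNA of the adult epsilon subunit exceeded RNA of the fetal gamma subunit in all 7 libraries. That order rests on exon lengths of 1690 bases for Chrne and 4163 for Chrng. In Cre-positive 76, Chrne had fewer reads than Chrng, at 43 against 51, and in the other libraries it had more. The per-length ratio of Chrne to Chrng was 4.01, 2.08 and 4.33 in Cre-positive 45, 76 and 80, against 4.79, 3.89, 5.47 and 5.74 in Cre-negative 46, 48, 75 and 77. Its mean was 3.47 ± 1.22 in Cre-positive and 4.97 ± 0.824 in Cre-negative libraries (SD, n = 3 and 4), and the ranges overlapped.

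Within genotypes, the libraries were not high or low together in all of these genes. Among the 6 genes that averaged 50 normalized counts or more, the Pearson correlation of log2 values with each genotype's mean taken out was above 0 for 7 of 15 pairs over the 7 libraries. It was highest for Chrnb1 with Agrn, at 0.671, lowest for Chrne with Agrn, at -0.833, and 0.114 for the called pair Chrna1 and Chrne. Over the same 7 libraries, the genes most like Chrna1 by this measure among 12825 candidates were Epcam (0.995), Ripk3 (0.989), Spink13 (0.986), Csnk2a2 (0.982) and Tifa (0.979). Spink13 had only 0, 0 and 1.0 normalized counts in Cre-positive 45, 76 and 80, so its value rests mostly on the Cre-negative libraries. It alone of these genes was called, as lower (log2 fold change -6.41, limma adjusted p = 2.50e-04). Epcam, the surface protein used in the sort, had 5800.4, 5597.9 and 6771.2 normalized counts in Cre-positive 45, 76 and 80, against 5098.5, 4615.7, 3882.7 and 4978.2 in Cre-negative 46, 48, 75 and 77. These values are a description of 7 libraries, since so many candidates were ranked on so few points.

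Acetylcholine receptors outside muscle are built from a related set of subunits, and several of these changed. Of 11 neuronal nicotinic subunits listed, 9 were tested, Chrna3, Chrna5 and Chrna2 were called lower and Chrna9 was called higher in Cre-positive mTECs. That is 4 of 9, beside 13.8% of all tested genes. Their median log2 fold change was -0.85.

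Chrna3 encodes the alpha3 subunit of autonomic ganglion receptors, itself an autoantigen in autoimmune ganglionopathy. It had 19.9, 11.0 and 19.7 normalized counts in Cre-positive 45, 76 and 80, against 157.5, 95.5, 141.4 and 103.4 in Cre-negative 46, 48, 75 and 77. The groups lay far apart, and Chrna3 fell by 2.83 on the log2 scale (SE 0.44, limma adjusted p = 0.00138).

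Chrna5, the accessory alpha5 subunit, neighbours Chrna3 and Chrnb4 on chromosome 9. It had 42.8, 9.0 and 2.1 normalized counts in Cre-positive 45, 76 and 80, against 178.5, 252.2, 130.6 and 105.5 in Cre-negative 46, 48, 75 and 77. Again no library overlapped, with Cre-positive 45 the highest of its group. Chrna5 fell by 3.84 on the log2 scale (SE 0.73, limma adjusted p = 0.00448). The log2 fold change was -4.83 without Cre-positive 45 and -2.92 without Cre-positive 80.

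Chrnb4, which encodes the beta4 partner of alpha3, had 20.9, 107.2 and 29.1 normalized counts in Cre-positive 45, 76 and 80, against 59.5, 68.0, 147.7 and 91.0 in Cre-negative 46, 48, 75 and 77. Cre-positive 76 lay inside the Cre-negative range, and the log2 fold change was -1.07 (limma adjusted p = 0.238). Without Cre-positive 76 it was -1.76 (limma adjusted p = 0.0502), still not called. Chrna2 had 1.0, 7.0 and 2.1 normalized counts in Cre-positive 45, 76 and 80, against 22.7 to 31.5 in the 4 Cre-negative libraries. It fell by 2.89 on the log2 scale (limma adjusted p = 0.0251), a call that was lost without any library other than Cre-positive 76, the highest adjusted p being 0.0680, with a term for the Y-linked genes (0.0555), with limma-voom (0.0716) and with no filter (0.0517). Chrna4, the common brain alpha subunit, averaged 25.3 ± 4.14 in Cre-positive and 48.4 ± 17.4 normalized counts in Cre-negative libraries and was not called (limma adjusted p = 0.310).

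Chrna9 went the other way. It encodes the alpha9 subunit, known from the efferent synapse on cochlear hair cells and from skin. It had 175.5, 285.4 and 347.7 normalized counts in Cre-positive 45, 76 and 80, against 48.6, 41.4, 15.3 and 114.8 in Cre-negative 46, 48, 75 and 77. Every Cre-positive library was higher, and Chrna9 rose by 2.54 on the log2 scale (SE 0.55, limma adjusted p = 0.00916). Its usual partner Chrna10 was barely read, at 16.4 ± 6.94 normalized counts in Cre-positive and 7.33 ± 1.83 in Cre-negative libraries, and was not called (limma adjusted p = 0.418). Chrna10 shares 1025 of its 2628 exon bases with Art1 on the opposite strand. Chrnb2, also among the tested subunits, shares 1365 of its 8380 exon bases with Adar on the opposite strand. Whether reads were counted by strand is not stated.

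**Figure D4:**
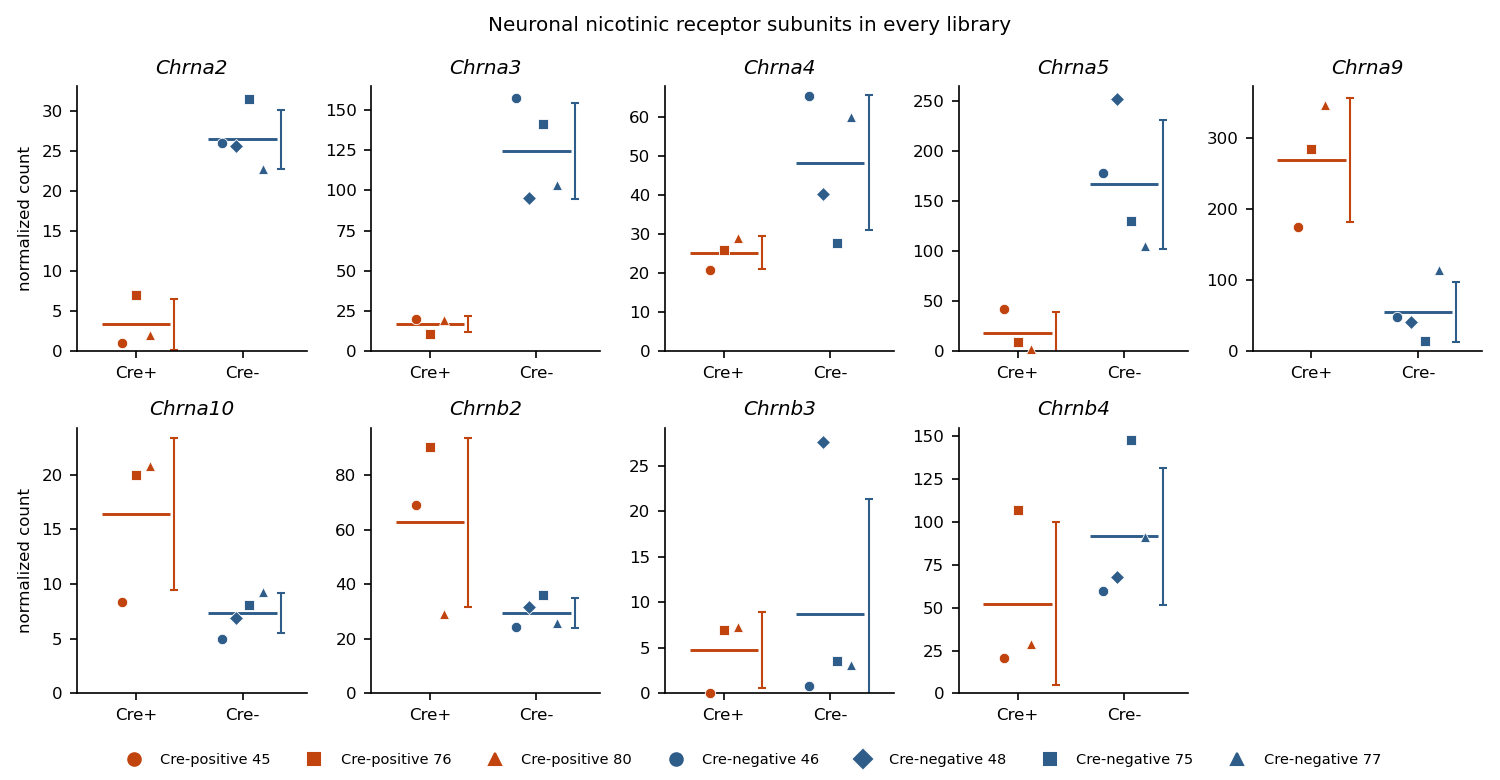
Normalized counts (vertical axis, a separate scale for each gene) of the 9 tested neuronal nicotinic receptor subunits in 3 Cre-positive (orange) and 4 Cre-negative (blue) libraries; symbols are libraries, lines are means and bars are SD. Cre-positive libraries lie below all Cre-negative ones for Chrna2, Chrna3 and Chrna5 and above them for Chrna9.

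Across all 128 other genes of the cholinergic and neuromuscular synapse that were listed by role, 118 were tested and 22 were called, 9 higher and 13 lower in Cre-positive mTECs. In percent of those tested this is 18.6%, beside 13.8% of all tested genes. The median log2 fold change was -0.19, and 41 genes did not overlap between the groups, a pattern that 25.3% of all tested genes showed.

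In transmitter handling and presynaptic release, 1 of 11 tested genes was called, or 9.09%, beside 13.8% of all tested genes. Rph3a, which encodes the vesicle protein rabphilin, had 4.2, 6.0 and 6.2 normalized counts in Cre-positive 45, 76 and 80, against 46.9, 43.3, 42.3 and 150.9 in Cre-negative 46, 48, 75 and 77. It fell by 3.26 on the log2 scale (SE 0.65, limma adjusted p = 0.00566), and the call was lost with limma-voom (0.0543). The vesicular acetylcholine transporter Slc18a3 and the choline transporter Slc5a7 were among the 10 listed genes too low to test.

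In the synaptic cleft and basal lamina, 3 of 17 tested genes rose (Colq, Col4a1 and Lama4) and Nid1 fell. These calls are 23.5% of the list, beside 13.8% of all tested genes. Colq encodes the collagen tail that anchors acetylcholinesterase in the cleft. It had 1712.6, 2284.2 and 2306.5 normalized counts in Cre-positive 45, 76 and 80, against 745.0, 1027.4, 1212.5 and 951.2 in Cre-negative 46, 48, 75 and 77. All Cre-positive libraries were higher, and Colq rose by 1.10 on the log2 scale (SE 0.20, limma adjusted p = 0.00310); it shares 199 of 3803 exon bases with Gm49387 on the same strand. Ache, the enzyme that Colq anchors, averaged 732 ± 54.1 in Cre-positive and 757 ± 227 normalized counts in Cre-negative libraries, and its log2 fold change of 0.00 changed sign with the scaling. Col4a1, a chain of basement membrane collagen, averaged 2476 ± 124 in Cre-positive and 1272 ± 100 normalized counts in Cre-negative libraries (log2 fold change 0.96, limma adjusted p = 0.00143). Nid1, the basement membrane linker nidogen, had 7.3, 9.0 and 46.7 normalized counts in Cre-positive 45, 76 and 80, against 508.7, 265.9, 250.4 and 290.5 in Cre-negative 46, 48, 75 and 77. It fell by 4.32 on the log2 scale (SE 0.56, limma adjusted p = 3.86e-04), and the log2 fold change was -5.12 without Cre-positive 80.

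In MuSK signalling and receptor clustering, 24 genes were tested and Macf1 alone was called, or 4.17%, beside 13.8% of all tested genes. Macf1, a linker of actin and microtubules, averaged 3169 ± 274 in Cre-positive and 1627 ± 242 normalized counts in Cre-negative libraries (log2 fold change 0.97, limma adjusted p = 0.00247). Of 12 genes of the dystrophin and utrophin complex, only Sgcd, which encodes delta-sarcoglycan, was called, or 8.33%, beside the same 13.8%. It had 140.0, 104.1 and 224.2 normalized counts in Cre-positive 45, 76 and 80, against 69.6, 36.4, 59.5 and 62.0 in Cre-negative 46, 48, 75 and 77, and rose by 1.41 on the log2 scale (limma adjusted p = 0.0333). That call was lost without any library other than Cre-positive 76, with limma adjusted p up to 0.136, without Cre-negative 48 at 0.0738, and with the Y-linked term at 0.0983. Library total scaling also ended the Sgcd call. Utrn, utrophin itself, averaged 322 ± 31.1 in Cre-positive and 353 ± 53.7 normalized counts in Cre-negative libraries and was not called (limma adjusted p = 0.764).

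Among 16 tested genes of synaptic gene control, Myog and Mef2a rose, and Hdac9, Myf6, Erbb3 and Nrg1 fell. These calls are 37.5% of the list, beside 13.8% of all tested genes. Myog encodes myogenin, a muscle transcription factor that binds E-boxes. It had 108.7, 160.2 and 381.0 normalized counts in Cre-positive 45, 76 and 80, against 35.2, 61.1, 33.3 and 30.0 in Cre-negative 46, 48, 75 and 77. Every Cre-positive library was higher, and Myog rose by 2.27 on the log2 scale (SE 0.47, limma adjusted p = 0.00732). Hdac9, a histone deacetylase that restrains receptor genes in innervated mouse muscle, averaged 264 ± 74.6 in Cre-positive and 603 ± 71.8 normalized counts in Cre-negative libraries (log2 fold change -1.22, limma adjusted p = 0.00436). Myf6, another muscle transcription factor, had 5.2, 1.0 and 13.5 normalized counts in Cre-positive 45, 76 and 80, against 12.6, 82.7, 33.3 and 101.3 in Cre-negative 46, 48, 75 and 77. Its log2 fold change was -2.99 (limma adjusted p = 0.0415), -2.24 without Cre-positive 76 and -3.67 without Cre-positive 80; the call was lost without Cre-positive 45 or 76, or Cre-negative 48, 75 or 77 (up to 0.123), with edgeR (0.0508), with limma-voom (0.161) and with the Y-linked term (0.122).

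Of 8 genes of glycosylation and receptor assembly, Gfpt1 fell and Alg14 rose, or 25.0% called, beside 13.8% of all tested genes. Mutations of both genes cause congenital myasthenic syndromes in people. Gfpt1, the first enzyme of the hexosamine pathway, had 732.5, 605.9 and 405.9 normalized counts in Cre-positive 45, 76 and 80, against 2023.0, 1984.8, 1525.1 and 1616.0 in Cre-negative 46, 48, 75 and 77. The groups were well separated, and Gfpt1 fell by 1.65 on the log2 scale (SE 0.22, limma adjusted p = 4.43e-04). Alg14, which acts early in protein N-glycosylation, averaged 855 ± 14.8 in Cre-positive and 496 ± 154 normalized counts in Cre-negative libraries (log2 fold change 0.85, limma adjusted p = 0.0469). The Alg14 call was lost without any library other than Cre-negative 46 (limma adjusted p up to 0.112) and under edgeR (0.0565), no filter (0.0544), library total scaling (0.0993), a number-range term (0.0555) and the Y-linked term (0.0829). Of 3 muscarinic receptors tested, none was called by limma, and 1 had an unadjusted p under 0.05.

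**Figure D5:**
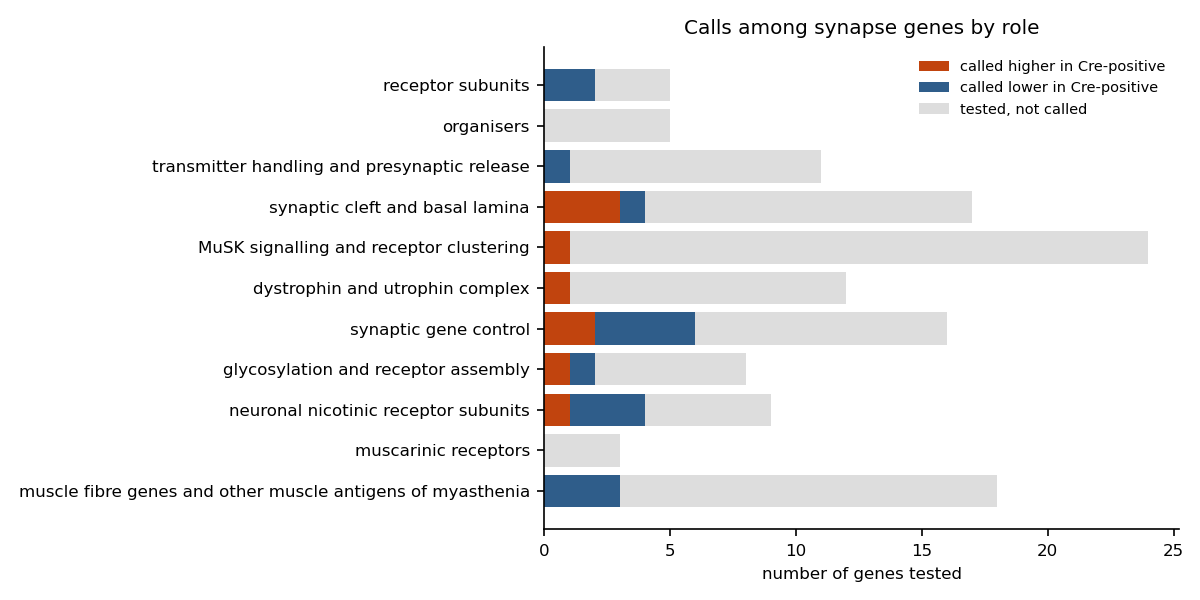
Number of tested genes in each role group of the synapse, split into those called higher (orange) or lower (blue) in Cre-positive libraries at a limma adjusted p under 0.05 and those not called (grey). Calls lower in Cre-positive libraries include 2 of 5 receptor subunits, 3 of 9 neuronal nicotinic subunits and 3 of 18 muscle fibre genes. Synaptic gene control has 4 of 16, and the 5 organisers have none. Among all tested genes 9.11% were called lower.

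Muscle fibre genes were measured in the same libraries to place the receptor subunits beside the rest of the muscle programme. Of 18 tested, 16 had a log2 fold change below 0 and the median was -1.52, beside 54.7% of all tested genes below 0 and a median of -0.10. Neb, Actc1 and Tnni1 were called lower, 3 of 18 or 16.7%, beside 9.11% of all tested genes. Neb encodes the thin filament ruler nebulin. It had 72.1, 191.3 and 60.2 normalized counts in Cre-positive 45, 76 and 80, against 502.8, 416.7, 477.4 and 503.5 in Cre-negative 46, 48, 75 and 77. Cre-positive libraries were all lower, and Neb fell by 2.32 on the log2 scale (SE 0.35, limma adjusted p = 0.00116).

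Actc1, cardiac actin, averaged 28.8 ± 23.3 in Cre-positive and 116 ± 52.6 normalized counts in Cre-negative libraries, with a log2 fold change of -2.17 (limma adjusted p = 0.0254) and of -2.78 without Cre-positive 80. The Actc1 call was lost without Cre-positive 45 or 76, or Cre-negative 48, 75 or 77 (up to 0.0802), with limma-voom (0.0561) and with the Y-linked term (0.0621). Tnni1, slow troponin I, averaged 145 ± 67.8 in Cre-positive and 417 ± 206 normalized counts in Cre-negative libraries (log2 fold change -1.53, limma adjusted p = 0.0266), a call lost without Cre-positive 76 or Cre-negative 75 or 77 (up to 0.0986). Ttn, titin, the muscle antigen with most reads, averaged 1283 ± 245 in Cre-positive and 1711 ± 491 normalized counts in Cre-negative libraries and was not called (limma adjusted p = 0.290).

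Markers of muscle-like cells, 12 in all with 10 read in every library, summed to 1579 to 2010 normalized counts in Cre-positive and 1859 to 3191 in Cre-negative libraries. Most of each sum was Ttn, at 1111.7 to 1563.2 in Cre-positive and 1264.6 to 2279.7 in Cre-negative libraries, so the sums say little about the other markers. Of 11 tested, Myog was called higher and Actc1 and Myf6 lower. All 12 are also in the lists of muscle fibre genes and synaptic gene control, so they are not a separate measurement. Fibroblast markers summed to 1231 to 1668 normalized counts in Cre-positive and 1264 to 1794 in Cre-negative libraries. Of 7 fibroblast markers, Col1a1, Col1a2 and Col3a1 were called lower, beside 9.11% of all tested genes. Dendritic cell and macrophage markers summed to 7262 to 11389 normalized counts in Cre-positive and 5088 to 6783 in Cre-negative libraries, with all 7 read everywhere, Lyz2 called higher and Adgre1 lower. Schwann cell markers summed to 101 to 222 normalized counts in Cre-positive and 194 to 477 in Cre-negative libraries. No marker of these 4 lists was at 0 in every library. In the further lists, no marker of thymocytes, B cells, endothelium or smooth muscle was called. Of 8 markers of cortical thymic epithelium, 1 was called higher and 3 lower. The part of any of these cells in the receptor and synapse results was not tested.

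The authors' deposited table gives its log2 fold changes as Cre-negative over Cre-positive, the opposite direction. In the authors' deposited table Chrna1 had 1.20 (adjusted p = 0.00530) and Chrne 1.30 (adjusted p = 0.00481), so both are lower in Cre-positive libraries there as well. In the authors' deposited table Chrng had 0.71 (adjusted p = 0.170), Chrnb1 0.17 (0.813) and Chrnd -0.63 (0.731). Rapsn had -1.75 there, with no p-value given. Of the genes with an adjusted p in the authors' deposited table, 21.8% were under 0.05.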

How the data were processed

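The members and the lists of other synapse genes and cell markers were chosen with earlier results of these data known. The authors deposited a table of 55536 genes in which each sample's values are normalized counts, a signal in which gene counts were scaled by 1 factor per library and rounded to 1 decimal, per the file headers. It also holds the authors' log2 fold change with its p-value. Per the submitters' processing notes, STAR 2.7.9a aligned reads to GRCm39 and DESeq2 was used; no source used here names the read counter or its strand setting. Coordinates are those of the deposited table, which match GENCODE M21 on GRCm38 for 95.2% of 52489 shared genes and for all 10 members. A reference table of gene IDs named all 3047 IDs without a symbol.

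Normalized counts were turned back into whole reads: in every one of the 7 libraries, 100% of values were whole multiples of the worth of 1 read, to within 0.0501. These reads serve levels per length, depth, 3 alternative tests (edgeR, DESeq2 and limma-voom) and an alternative scaling. Reads carried no stated molecular identifiers, so counting limits (a count of 0 allows up to 3 reads) cover counting error only.

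The main test was limma's trend method on log2(normalized count + 1) for the 22878 genes averaging 5 normalized counts or more, with genotype as the only term and Benjamini-Hochberg adjustment over all of them. Fold changes are on this scale, Cre-positive over Cre-negative. For genes with few reads they can differ in size and sign from a ratio of means, as for Chrnd (-0.45 against a ratio of 1.54). Adjusted p under 0.05 is a call. Named genes were the 10 members, Ikzf1, Pou2f3, Aire, in each role group up to 3 called genes with the largest change, 7 set genes (Chrna4, Chrna9, Chrnb4, Ache, Myog, Utrn, Ttn) and the 5 most like Chrna1; genes outside that rule (such as Chrna10, Lama4, Mef2a, Erbb3, Nrg1 and the called cell markers) were named after their values were seen. Alternatives were edgeR, DESeq2 and limma-voom on recovered reads, other pseudocounts, filters and scalings, terms for the sample number range and for Y-linked genes, and leaving out each library. Models were tested on simulated data. Fits used limma 3.58.1, DESeq2 1.42.0 and edgeR 4.0.16 in R 4.3.3; tables and figures used Python 3.11.15 with pandas 2.3.3, matplotlib 3.10.9 and numpy 2.4.6. RefSeq promoter windows were searched on both strands.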

Additional observations from a re-analysis of the deposited data

Results flagged for a closer look

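In 4 of 41 genes checked, 1 Cre-negative library lay further from the other 3 than Dixon's 95% limit for 4 values allows; chance does this in about 1 in 20 groups. Chrng was lowest in Cre-negative 48, at 56.1 normalized counts, with the others at 75.4 to 77.5. Rph3a was highest in Cre-negative 77, at 150.9, with the others at 42.3 to 46.9. Nid1 was highest in Cre-negative 46, at 508.7, with the others at 250.4 to 290.5. Myog was highest in Cre-negative 48, at 61.1, with the others at 30.0 to 35.2. The 3 Cre-positive libraries are too few for this check.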

How the results depend on the processing

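No paired analysis was possible because the genotypes share no sample number. Over all tested genes there were 3150 calls, against 2747 with edgeR, 4334 with DESeq2 and 2472 with limma-voom, and 1990 to 2696 when 1 library was left out. Of these, 1066 were higher, against 583 with library total scaling, 678 with the Y-linked term and 600 to 1008 without 1 library; 2084 were lower, against 1352 with limma-voom, 1274 with a mean of at least 50 and 1315 to 1759 without 1 library. Library total scaling moved the median of all genes to -0.30 (log2) and the split to 583 higher and 2636 lower; there Chrna1 was at -1.37 and Chrne at -1.47, both called.

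The 2 calls among the 10 synapse genes were 0 with limma-voom, 1 with no filter, 1 with the Y-linked term and 0 to 2 without 1 library. The 22 calls among other synapse genes were 15 to 19 without 1 library; the 9 higher were 14 with DESeq2 and 6 to 8 without 1 library, and the 13 lower were 9 to 13. Over named genes, 635 of 727 values kept direction and call, 65 lost the call, and 27 changed sign, none of them called. Sign changes were Chrnb1 0.050 with the Y-linked term; Chrnd 0.64 with edgeR, 0.63 with DESeq2 and 0.065 with a pseudocount of 5; Musk 0.10, 0.094 and 0.035 under the same settings; Tifa -0.13 with library total scaling; and Ache -0.050 with edgeR, -0.048 with DESeq2, -0.00018 with a pseudocount of 5, -0.20 with library total scaling, -0.063 with the number-range term and -0.19 with the Y-linked term. Without 1 library the ranges were -0.38 to 0.032 for Chrnb1, -1.51 to 1.31 for Chrnd, -1.02 to 1.14 for Musk, -0.17 to 0.14 for Ache, -0.34 to 0.56 for Ripk3 and -0.10 to 0.16 for Tifa. The cause of these changes was not tested.

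With 3 and 4 libraries, and few reads for Chrnd, Musk, Dok7 and Rapsn, differences the size of those in Chrna1 and Chrne were not detectable in those genes. Both calls among the 10 genes sat close to the threshold. The sample number range, which the labels do not call a batch, left both called when fitted as a term (Chrna1 0.0410, Chrne 0.0338, limma adjusted p).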
